A study of Rattus norvegicus with 4 samples.

Results

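The genes of the mitochondrial ribosome were followed between the surface and the deeper layers of rat articular cartilage. They were taken as the rows of the deposited table whose gene symbol starts with Mrps (small subunit) or Mrpl (large subunit) followed by a number. Of 31007 rows, 70 had such a symbol. Of these, 5 were listed at 0 in all 4 libraries (Mrps10, Mrps21l, Mrps17-ps1, Mrpl28 and Mrpl52), which left 65 genes, 26 of the small and 39 of the large subunit, among the 10789 rows not at 0 throughout. Tibial cartilage of 2 Sprague-Dawley rats aged 10 weeks, with no treatment or genotype named in the labels, had been cut by laser microdissection into the superficial zone (SFZ) and the deeper articular cartilage (deep AC). Each rat gave 1 library of each zone, made from linearly amplified RNA selected for poly(A) tails, so every gene has 2 within-rat differences.

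Mitochondria keep a ribosome of their own, which makes the few proteins encoded in mitochondrial DNA, all of them core parts of the respiratory chain and of ATP synthase. Its proteins are encoded in the nucleus, made in the cytosol and imported. Some descend from bacterial ribosomal proteins and others are found only in mitochondrial ribosomes. Chondrocytes live with little oxygen and rely largely on glycolysis, and mitochondrial function in them is studied for its part in matrix upkeep and joint disease.

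The deposited values are log2 values relative to each row's median over the 4 libraries. A difference between libraries is therefore kept, while a gene's level is not. For 48 of the 64 genes tested, whole reads that give exactly those differences could be found. They are called matched reads here, are the smallest such numbers and are known up to a common factor per gene. Over these 48 genes the mean was 16.9 to 4800 scaled reads, with a median of 423. The other 16 had no matched reads, so their depth is not given. These are reads per gene, not per length, so they give the depth behind a difference and do not rank the genes. Mrpl43 had 5 reads in deep AC of rat 2, was at the floor of the table in the other libraries and was not tested. The floor stands for 0 reads in SFZ and for 0 or 1 read in deep AC. Each difference is the SFZ value less the deep AC value of the same rat, in log2 units, and a ± gives the SD over the 2 rats. An SE is that of the limma fit, with a spread mostly borrowed across genes, so it does not measure the gene's own spread.

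In the whole table, the zones differed in cartilage markers while no gene passed the test. By limma, 0 of 8796 genes tested had an adjusted p under 0.05, and 868 had an unadjusted p under 0.05. All 11 tested markers of hyaline cartilage matrix were lower in SFZ in both rats, with medians of -2.51 and -2.60. The 8 tested superficial zone markers had medians of 2.12 and 2.46, with 6 higher in both rats and 1 at least 2-fold lower in both. The 4 of this list with matched reads summed to 430 and 207 in SFZ of rat 1 and rat 2 and 652 and 1715 in deep AC. In tissue pieces such as these, fewer cells of a type and less RNA per cell cannot be told apart. Some markers of other cells also differed between the 2 SFZ libraries. The macrophage markers C1qa, C1qb, C1qc and Tyrobp had 119, 91, 36 and 39 reads in SFZ of rat 1, and the other libraries were at the floor for all 4. Over the 13 measured markers of that list, matched reads summed to 4126 in SFZ of rat 1 and 3007 in SFZ of rat 2. In deep AC they summed to 4751 and 2726, so that the sum was highest in deep AC of rat 1. Gene by gene, the 10 tested markers of the list had median differences of 2.84 in rat 1 and 0.00 in rat 2. In rat 1, 6 of them were at least 2-fold higher in SFZ and 3 at least 2-fold lower. The 5 osteoblast and osteocyte markers with matched reads summed to 1400 and 64 in SFZ and 753 and 133 in deep AC. The 5 of skeletal muscle summed to 3 and 150 in SFZ and 79 and 0 in deep AC. The 3 erythroid and marrow markers with matched reads summed to 5005 and 5093 in SFZ and 3881 and 7266 in deep AC. These sums were close in the 2 SFZ libraries, while gene by gene the median absolute difference between them was 2.24.

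No gene of the mitochondrial ribosome passed the test, and as a group the genes did not stand on either side. By limma, 0 of 64 were called (background 0.0% of all genes tested), and the lowest adjusted p of any of them was 0.450. The median difference of the 26 small subunit genes was -0.57 in rat 1 and 0.22 in rat 2. That of the 38 tested large subunit genes was 0.22 and -0.10. The median over all genes tested was -0.13 and 0.00. The small subunit thus had medians of opposite sign in the 2 rats, as did the large subunit the other way round. Of the 64 genes, 14 were higher in SFZ in both rats, 14 were lower in both and 35 had opposite signs (21.9%, 21.9% and 54.7%). Over all genes tested these shares were 25.1%, 28.9% and 43.2%. At an unadjusted p under 0.05 there were 3 genes (4.69%, against a background of 9.87%): Mrpl1 and Mrps18b, higher in SFZ (background 4.47%), and Mrpl51, lower (background 5.4%). With 2 rats, an exact two-sided sign-flip test of a single gene cannot go below p = 0.5.

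**Figure D1:**
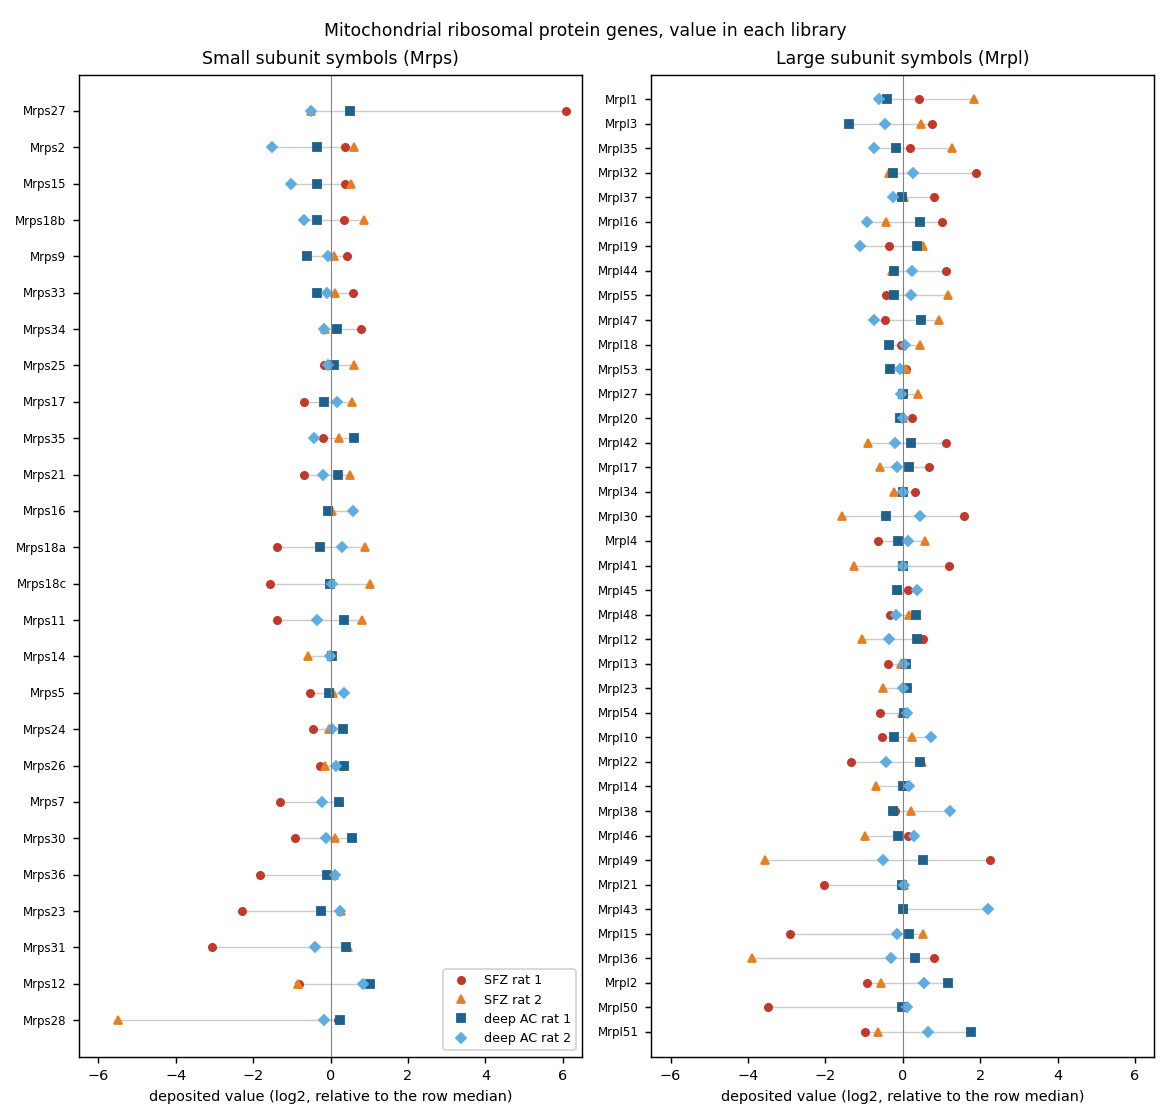
Deposited log2 value, relative to the row median, of each of the 65 mitochondrial ribosomal protein genes in each of the 4 libraries, with small subunit symbols on the left and large subunit symbols on the right, ordered by the mean within-rat difference. A grey line joins the lowest and the highest library. The blue deep AC points lie close together in most rows, while a red or orange SFZ point often lies far out, as for Mrps27, Mrps28, Mrps31, Mrpl50 and Mrpl36.

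A fold of at least 2 in the same direction in both rats was reached by 3 genes, all lower in SFZ: Mrps12 of the small and Mrpl51 and Mrpl2 of the large subunit. That is 4.69% of the genes tested, against a background of 11.9%. In the other direction 0 genes reached it, against a background of 6.41%. With each library left out in turn, limma fits with no rat term gave -1.85 to -1.66 for Mrps12, -2.58 to -1.46 for Mrpl51 and -1.91 to -1.29 for Mrpl2, and none of the 3 passed in any of them.

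Mrps12 belongs to the decoding site of the small subunit, and its bacterial relative is known for its part in the accuracy of translation. The gene lies at chr1:83845161-83848056 on the minus strand (rn4). It had 91 and 92 matched reads in SFZ of rat 1 and rat 2 and 334 and 316 in deep AC. Both SFZ libraries were low, both deep AC libraries were high, and the 2 rats differed little within either zone. Its differences were -1.84 and -1.66, a mean of -1.75 ± 0.12 (n = 2 rats; SE 0.91; limma adjusted p = 0.555).

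Mrpl51 is a large subunit protein with no bacterial counterpart, at chr4:161311611-161314569 (rn4). Its values were -0.99 and -0.65 in SFZ of rat 1 and rat 2 and 1.76 and 0.65 in deep AC. The zones did not overlap, and deep AC of rat 1 was the highest library. The differences were -2.75 and -1.29, a mean of -2.02 ± 1.03 (n = 2 rats; SE 0.64; limma adjusted p = 0.450). Mrpl2, whose bacterial relative sits near the site where peptide bonds are formed, lies at chr9:10016260-10020033 (rn4). It had 57 and 75 matched reads in SFZ of rat 1 and rat 2 and 249 and 175 in deep AC. Again the SFZ libraries were both below the deep AC libraries, at -2.09 and -1.11 (limma adjusted p = 0.674).

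The promoters of Mrpl51 and Mrpl2 are shown because both genes were at least 2-fold lower in both rats. They are the 250 bases before the RefSeq start of each gene in GRCr8, at chr4:159677738-159677987, plus strand, and chr9:21834608-21834857, minus strand. Mrps12 was not in the promoter table. None of the 3 motifs described further on was found in either, so no letter is in capitals.
Mrpl51: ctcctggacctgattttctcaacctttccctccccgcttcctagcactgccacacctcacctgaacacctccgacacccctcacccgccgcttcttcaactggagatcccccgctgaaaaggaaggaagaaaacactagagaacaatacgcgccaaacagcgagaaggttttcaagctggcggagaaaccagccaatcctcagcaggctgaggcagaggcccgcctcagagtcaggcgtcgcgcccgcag
Mrpl2: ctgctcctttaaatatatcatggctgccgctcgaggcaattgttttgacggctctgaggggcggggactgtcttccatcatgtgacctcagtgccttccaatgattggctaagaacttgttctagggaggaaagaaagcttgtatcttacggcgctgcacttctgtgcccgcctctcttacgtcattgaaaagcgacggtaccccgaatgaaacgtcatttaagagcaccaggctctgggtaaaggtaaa

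On the higher side, both SFZ libraries lay above both deep AC libraries for 11 genes (17.2%, against a background of 19.5%). Both lay below for 7 genes (10.9%, against a background of 22.9%). The 5 small subunit genes on the higher side were Mrps2, Mrps9, Mrps15, Mrps18b and Mrps33. The 6 of the large subunit were Mrpl1, Mrpl3, Mrpl27, Mrpl35, Mrpl37 and Mrpl53. Below were Mrps12, Mrps24, Mrps26, Mrpl2, Mrpl13, Mrpl51 and Mrpl54.

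The genes with the highest mean differences among these were picked once the values were known. Mrps18b had 986 and 1425 matched reads in SFZ of rat 1 and rat 2 and 622 and 528 in deep AC. Rat 2 showed the wider gap between zones, with differences of 0.70 and 1.55, a mean of 1.13 ± 0.60 (n = 2 rats; SE 0.43; limma adjusted p = 0.5002). Mrps2, a small subunit protein with a bacterial relative, had 408 and 495 matched reads in SFZ and 253 and 123 in deep AC. Here too the gap was wider in rat 2, where deep AC was lowest, with differences of 0.73 and 2.13. Mrps15, which has one too, showed the same order, with values of 0.36 and 0.54 in SFZ against -0.36 and -1.03 in deep AC.

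Mrpl1, the protein of the mobile L1 stalk of the large subunit, stood at 0.41 and 1.84 in SFZ and -0.41 and -0.62 in deep AC. SFZ of rat 2 was the highest library, and the differences were 0.82 and 2.46 (limma adjusted p = 0.5002). Mrpl35 also had its highest value in SFZ of rat 2, with differences of 0.37 and 2.01. Mrpl3, a relative of a bacterial protein that helps to start assembly of the large subunit, had the wider gap in rat 1, at 2.13 and 0.94. No gene of the 11 was at least 2-fold higher in both rats.

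**Figure D2:**
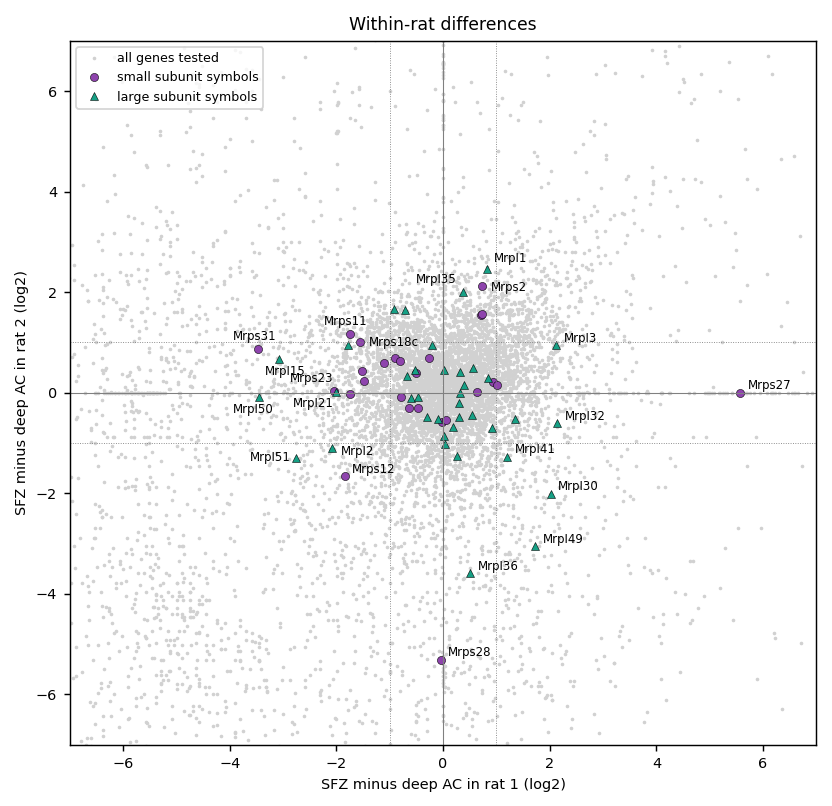
Difference SFZ minus deep AC (log2) in rat 1 on the horizontal and in rat 2 on the vertical axis. Grey dots are all 8796 genes tested, purple circles the 26 small subunit and green triangles the 38 large subunit genes, and dotted lines mark a 2-fold difference. The axes end at 7 on either side, which leaves out 343 genes, none of them a mitochondrial ribosomal protein gene. Of the named genes, 3 lie beyond 2-fold in the lower left and none in the upper right.

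Opposite directions of at least 2-fold in the 2 rats were seen for 5 genes (7.81%, against a background of 11.2%): Mrps11 and Mrps18c of the small and Mrpl30, Mrpl41 and Mrpl49 of the large subunit. Mrpl30 had 982 and 113 matched reads in SFZ of rat 1 and rat 2 and 248 and 493 in deep AC. The SFZ libraries held both the highest and the lowest value, and the differences were 2.02 and -2.01. Mrpl41, a protein found only in mitochondrial ribosomes, had 1382 and 256 matched reads in SFZ and 616 and 673 in deep AC. Its deep AC libraries differed little while SFZ lay on either side of them, at 1.20 and -1.28. Mrpl49 had 55 and 0 reads in SFZ and 17 and 9 in deep AC, so that its difference in rat 2 is taken against the floor. Mrps18c stood at -1.58 and 1.03 in SFZ of rat 1 and rat 2 and at -0.02 and 0.02 in deep AC. It is the copy of the S18 family that takes the place of bacterial S18.

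Mrps11 and Mrpl46 lie head to head on chromosome 1 with 233 bases between them, and went opposite ways. Mrps11, a small subunit protein near the channel of the messenger RNA in bacterial ribosomes, had 70 and 331 matched reads in SFZ of rat 1 and rat 2 and 242 and 160 in deep AC. Mrpl46, a large subunit protein found only in mitochondrial ribosomes, had 374 and 178 in SFZ and 320 and 461 in deep AC. In SFZ, rat 1 was the lower library for Mrps11 and the higher one for Mrpl46. The differences were -1.75 and 1.17 for Mrps11 and 0.26 and -1.26 for Mrpl46, and neither passed (limma adjusted p = 0.954 and 0.847). Their promoters are printed because the genes share one: the 250 bases before each RefSeq start in GRCr8 overlap by 233 bases, with the same letters read on opposite strands. They are chr1:142117014-142117263, plus strand, and chr1:142117031-142117280, minus strand, and hold none of the 3 motifs.
Mrps11: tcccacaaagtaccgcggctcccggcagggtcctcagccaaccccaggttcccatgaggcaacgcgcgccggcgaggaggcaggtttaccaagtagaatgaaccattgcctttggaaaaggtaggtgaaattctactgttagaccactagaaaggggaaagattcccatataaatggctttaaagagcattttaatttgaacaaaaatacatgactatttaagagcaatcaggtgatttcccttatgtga
Mrpl46: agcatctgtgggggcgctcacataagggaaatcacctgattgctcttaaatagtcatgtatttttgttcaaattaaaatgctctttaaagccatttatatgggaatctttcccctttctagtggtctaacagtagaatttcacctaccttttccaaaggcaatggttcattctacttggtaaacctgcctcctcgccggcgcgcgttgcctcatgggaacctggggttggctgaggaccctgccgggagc

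A difference of at least 4-fold in 1 rat with less than 2-fold in the other was found for 13 genes (20.3%, against a background of 15.1%). They are named with their values in view. The wide difference was in rat 1 for 8 genes (12.5%, against a background of 7.98%), with Mrps27, Mrpl32 and Mrpl3 higher in SFZ and Mrps23, Mrps31, Mrpl15, Mrpl21 and Mrpl50 lower. It was in rat 2 for 5 genes (7.81%, against a background of 7.15%), with Mrps2, Mrpl1 and Mrpl35 higher and Mrps28 and Mrpl36 lower. Under 2-fold in both rats were 30 genes (46.9%, against a background of 33.7%).

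In most of the 13, a single SFZ library stood away from the other 3. Mrpl50 had 31 matched reads in SFZ of rat 1 and 355 in SFZ of rat 2, against 350 and 410 in deep AC. Mrps31 had 55 and 646 in SFZ and 624 and 385 in deep AC. Both are proteins found only in mitochondrial ribosomes, and in both SFZ of rat 1 was the low library. Mrpl15, with a bacterial relative in the large subunit, had 8 and 88 matched reads in SFZ and 69 and 60 in deep AC. Mrps23 of the small subunit had 63 and 382 in SFZ and 268 and 404 in deep AC. Again the low library was SFZ of rat 1. Mrpl36, a small protein of the large subunit with a bacterial relative, went the other way, with 1030 and 40 matched reads in SFZ and 743 and 524 in deep AC. Mrpl32 is cut to its mature form by the m-AAA protease of the inner membrane before it is built into the ribosome. It had 957 and 208 matched reads in SFZ and 222 and 344 in deep AC, where SFZ of rat 1 was high and the other libraries lay together. The m-AAA protease genes stood at 1.34 and 0.75 (Afg3l2) and at 1.48 and -2.63 (Spg7).

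Libraries at the floor occurred in 4 genes. Mrps27, a small subunit protein with RNA-binding repeats, had 93 reads in SFZ of rat 1, 2 in deep AC of rat 1, and was at the floor in both libraries of rat 2. Mrps28 had 50 and 0 reads in SFZ and 53 and 43 in deep AC. Only SFZ of rat 2 was empty, so the difference of -5.31 in rat 2 depends on the floor. Mrpl49 and Mrpl43 have been given. Because the RNA had been amplified, many reads can stem from a single molecule, and a count of 0 allows for counting error only.

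**Figure D3:**
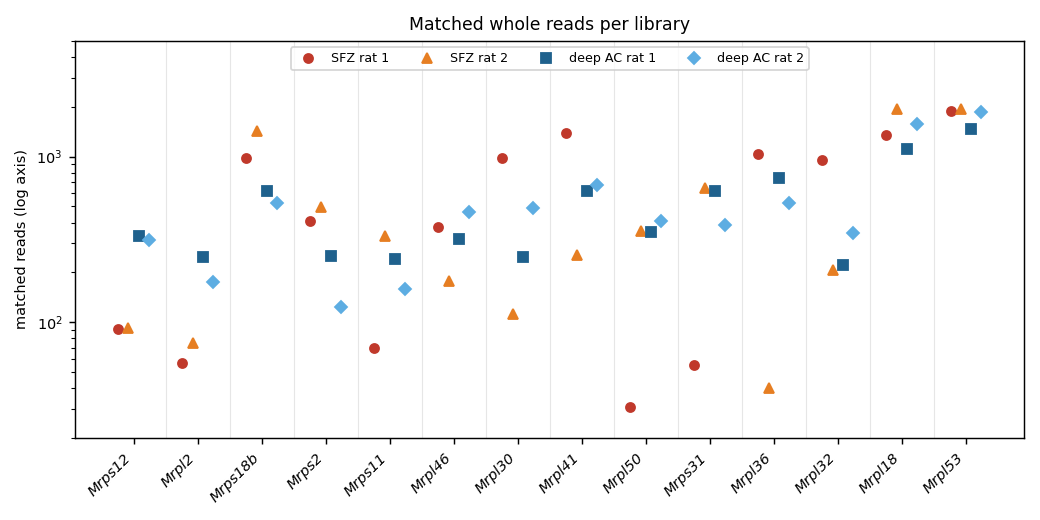
Matched whole reads (log axis) of 14 mitochondrial ribosomal protein genes in each library, known up to a common factor per gene, so that heights are compared within a gene only. Mrps12 and Mrpl2 have both SFZ libraries below both deep AC libraries, Mrps18b and Mrps2 have both above, and in Mrps11 to Mrpl32 an SFZ library lies far from the other SFZ library. In Mrpl18 and Mrpl53 all 4 libraries lie together.

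In most of these genes the distance between the rats was larger in SFZ than in deep AC. The median absolute difference between the rats was 0.997 in SFZ and 0.41 in deep AC over the 64 genes, against 0.90 and 0.52 over all genes tested. It was 0.86 and 0.41 for the small and 1.09 and 0.43 for the large subunit. In 48 of the 64 genes the SFZ libraries were farther apart than the deep AC libraries (64.7% among all genes tested). Of the small subunit genes, 19 of 26 were lower in SFZ of rat 1 than in SFZ of rat 2, and of the large subunit genes 20 of 38 were, against 50.4% of all genes tested. The osteoblast and muscle sums and some of the macrophage markers given above differed between the 2 SFZ libraries too, while the erythroid and marrow sums were close. Gene by gene, the 7 tested osteoblast and osteocyte markers had a median absolute difference between the rats of 0.70 in SFZ and 1.95 in deep AC. The part of these lists in the differences of the mitochondrial ribosomal protein genes was not tested.

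Cytosolic ribosomal proteins and subunits of oxidative phosphorylation are set beside these genes as other large complexes. Where the mean reached 100 scaled reads, 30 of 59 mitochondrial ribosomal protein genes were within 2-fold in both rats (50.8%), against 42.1% of all genes. It was 98.6% of the 69 cytosolic ribosomal protein genes and 83.8% of the 68 oxidative phosphorylation genes. The median absolute difference between the SFZ libraries was 0.14 for the 70 cytosolic ribosomal protein genes tested and 0.34 for oxidative phosphorylation. The groups were not matched for depth. Among genes with matched reads, the median was 1329 scaled reads for oxidative phosphorylation and 423 for the mitochondrial ribosome. The differences between these groups of genes are descriptions. They were not tested, and 69 of the 70 cytosolic ribosomal protein genes had no matched reads. For genes without matched reads, reaching 100 scaled reads rests on a level set from the binary places of the values.

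**Figure D4:**
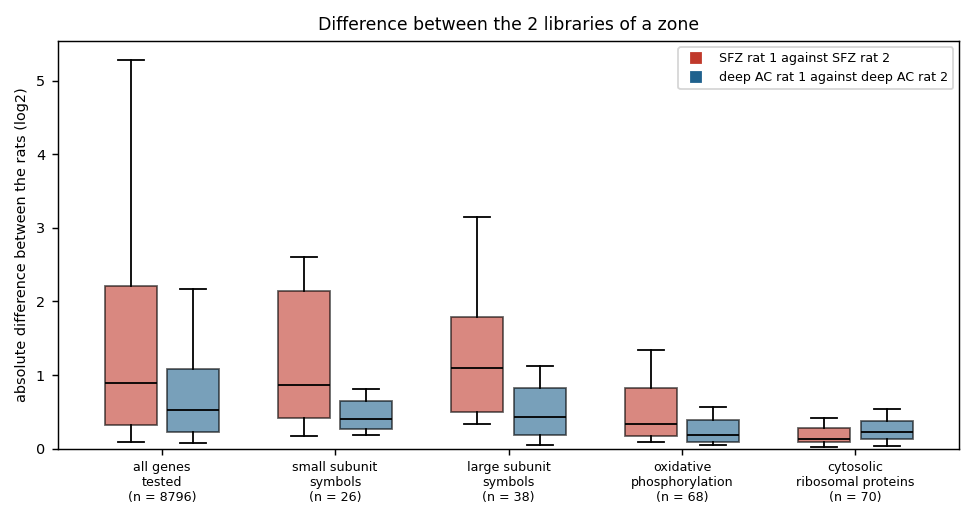
Absolute log2 difference between rat 1 and rat 2 within SFZ (red) and within deep AC (blue), for all genes tested, the small and large subunit genes of the mitochondrial ribosome, oxidative phosphorylation subunits and cytosolic ribosomal proteins. Boxes span the quartiles with the median as a line, whiskers reach the 10 and 90 percentiles, and values beyond them are not drawn. The SFZ median is above the deep AC median in all groups except the cytosolic ribosomal proteins, where it is 0.14 against 0.22.

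The genes with the least difference in either rat were Mrps5, Mrps14, Mrps16 and Mrps17 of the small and Mrpl18, Mrpl20, Mrpl34 and Mrpl53 of the large subunit. Mrpl53, a protein found only in mitochondrial ribosomes, had 1875 and 1927 matched reads in SFZ of rat 1 and rat 2 and 1463 and 1869 in deep AC. Its zones just failed to overlap, at 0.40 and 0.16 (limma adjusted p = 0.815). Mrpl18, which carries 5S rRNA in bacterial ribosomes and is also known for RNA import into mitochondria, had 1341 and 1925 matched reads in SFZ and 1111 and 1579 in deep AC. Both libraries of rat 2 were above those of rat 1 from the same zone, with differences of 0.31 and 0.40. Mrpl34 had 313 and 222 in SFZ and 260 and 279 in deep AC. Mrps16 had 506 and 539 in SFZ and 502 and 848 in deep AC. In both the zones overlapped.

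Some symbols do not match the place of the protein. Mrps18a and Mrps30 sit in the large subunit of the mammalian mitochondrial ribosome. Mrps18a had 83 and 409 matched reads in SFZ of rat 1 and rat 2 and 184 and 294 in deep AC, at -1.11 and 0.59. Mrps30 had 203 and 429 in SFZ and 579 and 397 in deep AC, at -1.47 and 0.23. Mrps36 is now known as Kgd4, part of the alpha-ketoglutarate dehydrogenase complex of the citric acid cycle. It had 190 and 735 in SFZ and 657 and 816 in deep AC, at -1.75 and -0.03. In all 3, SFZ of rat 1 was the lowest library. With Mrps18a and Mrps30 counted as large and Mrps36 left out, the medians were -0.48 and 0.20 for the small and 0.11 and -0.09 for the large subunit. The 3 copies of the S18 family differed from one another, since Mrps18b was higher in SFZ in both rats while Mrps18a and Mrps18c were lower in rat 1 and higher in rat 2. Whether they differ beyond their spread was not tested. Mrpl12, of the flexible stalk of the large subunit and also known to bind the mitochondrial RNA polymerase, had 1570 and 536 matched reads in SFZ and 1424 and 939 in deep AC. SFZ of rat 2 was the lowest library, and the differences were 0.18 and -0.69.

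Proteins with bacterial relatives and proteins found only in mitochondria were also set apart, with the subunit taken from the known structure. The 14 small subunit genes with bacterial relatives had medians of -0.50 and 0.28 in rat 1 and rat 2, and the 9 without had -0.26 and 0.20. In the large subunit, the 25 with bacterial relatives had medians of 0.02 and 0.01, and the 15 tested without had 0.26 and -0.49. The medians of the 2 rats had opposite signs in 3 of the 4 groups and lay close to 0 in both rats in the other.

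Of 6 tested mitochondrial ribosomal proteins with other symbols, limma called 0. Aurkaip1, a small protein of the small subunit, had 933 and 2038 matched reads in SFZ of rat 1 and rat 2 and 602 and 1171 in deep AC. SFZ was above deep AC in each rat, at 0.67 and 0.92, though the zones overlapped. Ptcd3, a small subunit protein with RNA-binding repeats, stood at 0.42 and 0.23, and Dap3, the GTP-binding protein of the small subunit, at 0.00 and 0.56. Chchd1 of the small subunit stood at -0.25 and -0.47 and Gadd45gip1 of the large subunit at -0.37 and 0.17. Ict1, which frees stalled ribosomes of their peptide, stood at 0.65 and -1.68 with the widest gap between the rats of the 6.

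Genes that serve this ribosome gave 0 calls by limma in any list. The counts beyond 2-fold below stand beside backgrounds of 6.41% higher and 11.9% lower in both rats over all genes tested. Of 11 tested translation factors, Mto1, which modifies mitochondrial transfer RNAs, was at least 2-fold higher in both rats, at 1.14 and 1.76, and the list's medians were 0.77 and -0.73. Of 14 tested genes that charge mitochondrial transfer RNAs, Qrsl1, a subunit of the enzyme that makes glutaminyl transfer RNA, had 518 and 178 matched reads in SFZ and 71 and 26 in deep AC. Its differences were 2.90 and 2.89 (limma adjusted p = 0.5002), and the list's medians were 0.03 and 0.14. Of 18 tested assembly factors, Mpv17l2 was at least 2-fold lower in both rats, at -4.25 and -1.003, and the medians were 0.31 and 0.16. Of 17 genes of mitochondrial DNA transcription and RNA handling, Polg2 and Tfb2m were higher and Polrmt and Mterfd1 lower by at least 2-fold in both rats, with medians of -0.58 and 0.17. Polrmt, the mitochondrial RNA polymerase, stood at -6.42 and -5.88 (limma adjusted p = 0.467). It had no matched reads, so the depth behind these differences is not given. Mterfd1, a factor also needed for assembly of the mitochondrial ribosome, had 44 and 52 matched reads in SFZ and 381 and 438 in deep AC, at -3.08 and -2.96. Of the 68 oxidative phosphorylation genes, 0 were beyond 2-fold on one side in both rats (medians 0.04 and -0.22), and of the 70 cytosolic ribosomal protein genes 0 were (medians -0.08 and -0.32).

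Several of these genes start close to another gene on the other strand. For 18 of the 65 genes a neighbour pointing the other way began within 1000 bases, and in 14 of these cases both were tested. The pair had the same sign of difference in 7 of 14 in rat 1, in 6 of 14 in rat 2 and in 3 of 14 in both; Mrps11 and Mrpl46 are each counted. Mrps12 has Sars2, which charges mitochondrial transfer RNA with serine, 193 bases away, and Sars2 stood at 1.25 and -3.21, the latter against the floor in SFZ of rat 2. Mrps27 has Ptcd2, an RNA-binding repeat protein gene, 90 bases away, at -6.37 and 2.05 against 5.58 and 0.00 for Mrps27. Mrpl30 and its neighbour Mitd1 went the same way in each rat, with Mitd1 at 0.86 and -2.54. Mrpl50 and Zfp189 did so too, with Zfp189 at -6.61 and -0.71. Ptcd2 and Zfp189 were at the floor in SFZ of rat 1, so their values in rat 1 depend on the floor. The rows of Mrpl47, Mrps7 and Mrps18a overlap a row on the opposite strand that was not at 0 (Actl6a, Gga3 and Rsph9). Whether reads were counted by strand is not stated, so these genes could share reads.

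Promoters of 52 of the 65 genes were in the RefSeq table for GRCr8, and 3 motifs were searched on both strands of the 250 bases before each start. The NRF-1 palindrome, spelled in capitals in the Mrps18b promoter, was in 4 of 52 (7.69%, against 0.849% of 27457 promoters): Mrpl17, Mrpl32, Mrpl44 and Mrps18b. The ETS core CCGGAAG was in 9 (17.3%, against 7.74%), and the YY1 core AAGATGGC in 3 (5.77%, against 1.69%), Mrpl32, Mrpl36 and Mrpl48. In these promoters no match overlapped that of another motif. NRF-1 and factors of the ETS family are known regulators of nuclear genes for mitochondrial proteins. A match says only that the letters are there. The genes with the NRF-1 letters were all higher in SFZ in rat 1 and did not share a direction in rat 2. Mrps18b stood at 0.70 and 1.55, Mrpl17 at 0.54 and -0.44, Mrpl32 at 2.15 and -0.61 and Mrpl44 at 1.34 and -0.52. The 250 bases before the start of Mrpl32 (chr17:55260401-55260650, plus strand) and Mrps18b (chr20:2842756-2843005, plus strand) are shown as the promoters with the letters. In Mrpl32, the capitals mark the YY1 core on the other strand and then the NRF-1 palindrome, and in Mrps18b the palindrome.
Mrpl32: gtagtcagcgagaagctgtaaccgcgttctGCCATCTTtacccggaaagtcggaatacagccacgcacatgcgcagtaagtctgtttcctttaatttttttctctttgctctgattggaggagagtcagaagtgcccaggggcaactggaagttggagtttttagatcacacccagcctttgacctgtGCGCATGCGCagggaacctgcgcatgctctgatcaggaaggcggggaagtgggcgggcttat
Mrps18b: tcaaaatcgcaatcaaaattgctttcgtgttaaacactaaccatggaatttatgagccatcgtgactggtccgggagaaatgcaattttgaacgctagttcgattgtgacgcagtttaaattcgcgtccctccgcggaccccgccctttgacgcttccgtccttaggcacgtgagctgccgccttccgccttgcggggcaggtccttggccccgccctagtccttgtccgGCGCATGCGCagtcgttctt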

How the data were processed

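Poly(A) RNA of SFZ and deep AC from 2 rats was measured by RNA-seq after laser microdissection and linear amplification, per the labels' protocols. The authors deposited 1 table of log2 values, scaled by TMM per its title, with 1 row per gene; positions are on rn4 per the submitters' processing notes. Aligner, counter and strand use were not given in the sources used here. The deposited log2 values were found to be scaled read counts, with anything under 1 set to 1, less the row median: 1 read is worth 1.02, 1.00, 0.996 and 0.923 in SFZ of rat 1 and rat 2 and deep AC of rat 1 and rat 2. Whole reads matching the 3 differences of a row to a relative tolerance of 1e-06 were searched (72.5% of 7414 rows with no library at the floor matched, and 5 after jitter), with a sum of at most 20000. For other rows the binary places of the values set the level. Matched reads summed to 3748581, 3942278, 3755888 and 3877387 in the same order; total depth is unknown.

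Genes reaching a mean of 10 scaled reads (8796) were fitted in limma 3.58.1 (R 4.3.3; lmFit, eBayes with a trend on the level) on zone and rat, which left 1 residual degree of freedom, in two-sided tests with Benjamini-Hochberg adjustment over all genes tested and a threshold of 0.05. The design had assumed that levels might not be had; differences do not depend on them, but the minimum and the trend do. The rat is a block since titles give both zones of 1 animal the same number. The difference between rats in SFZ correlated with that in deep AC at r = 0.05 across 8796 genes, which are not independent. The method was also run on simulated reads, drawn from rows with a matched level and with no rat effect. That run does not cover a rat effect or rows without a match. Python 3.11.15 with pandas 2.3.3 and matplotlib 3.10.9 made the other values.

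Genes were named by a rule: any past the threshold; those at least 2-fold apart in both rats (at most 6 per subunit and direction); at most 4 per subunit with opposite directions, and at most 4 least apart; those with a library at the floor; 6 genes of interest; and, of related lists, all ribosomal proteins with other symbols and at most 4 others each. Members and lists were chosen with earlier results of these data known. Ribosomal protein S6 kinases, which share the start of a symbol, were left out of the cytosolic list. Promoters come from RefSeq (GRCr8), whose coordinates differ from those of rn4. The alternatives were no rat term, other minimum levels, 1 added before the log, quantile normalization, no trend, floor rows left out, each library left out, subunits by structure, and, added after seeing the data, rows with matched reads only.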

Additional observations from a re-analysis of the deposited data

How the results depend on the processing

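By limma, 0 genes of the mitochondrial ribosome were called under all alternatives run; over the alternatives, their lowest adjusted p ran from 0.156 without SFZ of rat 2 to 0.593 with no minimum level. The rat pairs the zones by animal, and without it as a block 0 of the 64 were called too (lowest adjusted p 0.293). The 3 genes at an unadjusted limma p under 0.05 became 6 without the block and 0 without the trend. They were also 0 with matched reads only, which leaves out Mrpl1 and Mrpl51. The share over all genes under these settings is not given. Among all genes, 0 were called, but 62 with quantile normalization, and 0 to 403 when a library was left out (365 without deep AC of rat 1 and 403 without deep AC of rat 2). With quantile normalization the median over all genes was 0.03 in rat 1 and 0.04 in rat 2, in place of -0.13 and 0.00. It also moved the genes at least 2-fold apart in both rats from 564 higher and 1047 lower (64.99% lower) to 918 higher and 696 lower (43.1% lower). Under it, 1 small subunit gene was at least 2-fold higher (Mrps27, at the floor in both libraries of rat 2) and 1 large subunit gene lower (Mrpl51, with Mrpl2 at -1.87 and -0.95). With matched reads only, which leaves out Mrpl51, 1 large subunit gene was lower and the large subunit median in rat 2 was -0.50; the cause was not tested. The median of fitted differences was -0.27 for the small and -0.04 for the large subunit. It ran from -0.59 to 0.24 and from -0.10 to 0.05 when a library was left out, the small subunit being at 0.24 without SFZ of rat 1 and at -0.59 without SFZ of rat 2. Fold counts in both rats do not use the rat term or the trend. With a library left out they could not be had. Of 211 values of single named genes, 16 moved by more than the spread between rats. With quantile normalization 4 values changed sign, none of them past a test: Mrps16 in rat 1 (0.05 to -0.12), Mrps28 in rat 1 (-0.05 to 0.99), Mrpl21 in rat 2 (0.01 to -0.02) and Mrps23 in rat 2 (0.04 to -0.07). With 2 libraries per zone and 1 residual degree of freedom, a missed threshold does not show that the zones were alike.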
